A study of Drosophila melanogaster with 12 samples.

Results

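The Notch pathway genes described here are *N*, *Dl*, *Ser*, *fng*, *neur*, *mam*, *Su(H)*, *H*, *kuz* and *Psn*, 10 genes chosen by name out of the 17737 genes counted in the Bam pull-downs. They were matched by symbol and FlyBase identifier in the pull-down counts and in the RNA-seq table of 6555 genes. *Psn* carries FBgn0284421 in the pull-down counts and FBgn0019947 in the RNA-seq table. All 10 were present in both tables, and 9 had at least 1 count in a pull-down library. *Ser* had none and could not be tested. RNA immunoprecipitation with sequencing (RIP-seq) was performed on ovaries of the strain Bam-fTRG-GFP, which carries a GFP-tagged Bam made from a genomic fosmid, in 3 samples, and on ovaries of the strain Bam-Gal4 ::UASp-GFP, which makes GFP alone in the cells that switch on the *bam* promoter, in 3 control samples. RNA-seq was performed on GFP-positive cells sorted from ovaries, in 3 samples of vas-GFP; bam_delta86/bam_delta86, in which most of *bam* is deleted, and in 3 samples of vas-GFP, which marks germ cells and has an intact *bam*. Each sample pooled ovaries, and the age of the flies is not given in the labels. Whether the samples of a group came from separate cultures of flies is not stated, so that p-values measure the spread between these samples, which may be technical.

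Notch is a receptor that reads contact between neighbouring cells. A ligand on one cell, Delta or Serrate, pulls on the receptor of the next, which is then cut by an ADAM protease outside the membrane and by γ-secretase within it, and the released intracellular part enters the nucleus and turns Su(H) from a repressor into an activator. In the fly ovary, Delta made by germ cells signals to Notch in the surrounding follicle cells and switches them out of the mitotic cycle, and Notch also acts when the stem cell niche is formed. Bam protein is found in cystoblasts and early cysts of the germ line, where it acts on mRNA together with partner proteins.

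The pull-down libraries held between 7697440 and 12704088 counts on genes, and between 79.3% and 89.6% of the total over all lines of a library stood on the line for alignments to several places. That line of HTSeq counts alignment records, of which a read can have many, so that it is not a share of reads. Levels are given in CPM, the count of a gene relative to the size of its library, scaled with edgeR's TMM factors. Both groups were compared with edgeR's quasi-likelihood test on the 10971 genes that any library had counted at least 1 time. A block term took up the number in the library's name, after the paired test of the study. The libraries themselves did not consistently show that numbers pair them. All p-values were adjusted by the Benjamini-Hochberg method over all 10971 genes. A log2 fold change is positive where Bam-GFP was higher than the GFP control, and SE is its standard error. Pearson correlations of log2 CPM across 6335 well-counted genes (genes are not independent replicates) lay from 0.893 to 0.933 among Bam-GFP libraries, from 0.899 to 0.949 among GFP controls and from 0.836 to 0.943 between a library of each group. *bam* itself had 49.5 ± 2.403 CPM in Bam-GFP libraries and 10.6 ± 6.75 CPM in GFP controls (SD, n = 3 each), as the labels would have it, but the fosmid itself adds copies of *bam*, so that this does not test the pull-down. Its call was lost without replicate 2 (adjusted p = 0.0689) or replicate 3 (adjusted p = 0.128) in edgeR's test. Input RNA was not analysed here, and binding by Bam therefore cannot be told apart from a different amount of the transcript in the ovaries. Fewer cells of a type and less RNA per cell cannot be told apart either.

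Of the 9 members tested, *N* and *mam* were higher with Bam-GFP at an adjusted p under 0.05 in edgeR's test and none was lower. Among all genes tested, 2.2% were called in either direction and 1.72% were called higher. No further member had an unadjusted p under 0.05, a threshold that 5.54% of all genes passed in the direction of Bam-GFP and 4.03% in the other. The members' median log2 fold change was 0.33, beside a median of −0.05 over all genes tested, and 7 of the 9 had a positive one, beside 47.8% of all genes. With library size as the only scaling 5 of the 9 were positive, beside 38.7% of all genes. The members' median was 0.19 without replicate 1, 0.16 without replicate 2 and 0.49 without replicate 3. *mam* and *H* had every Bam-GFP library above every control. Across all genes, 6.4% had groups separated in this direction and 7.24% in the opposite one. The calls of *N* and *mam* depended on the processing. An adjusted p under 0.05 was kept by *N* in 2 and by *mam* in 3 of the 10 alternatives, and both calls were lost without replicate 1, without replicate 2 and without replicate 3.

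**Figure D1:**
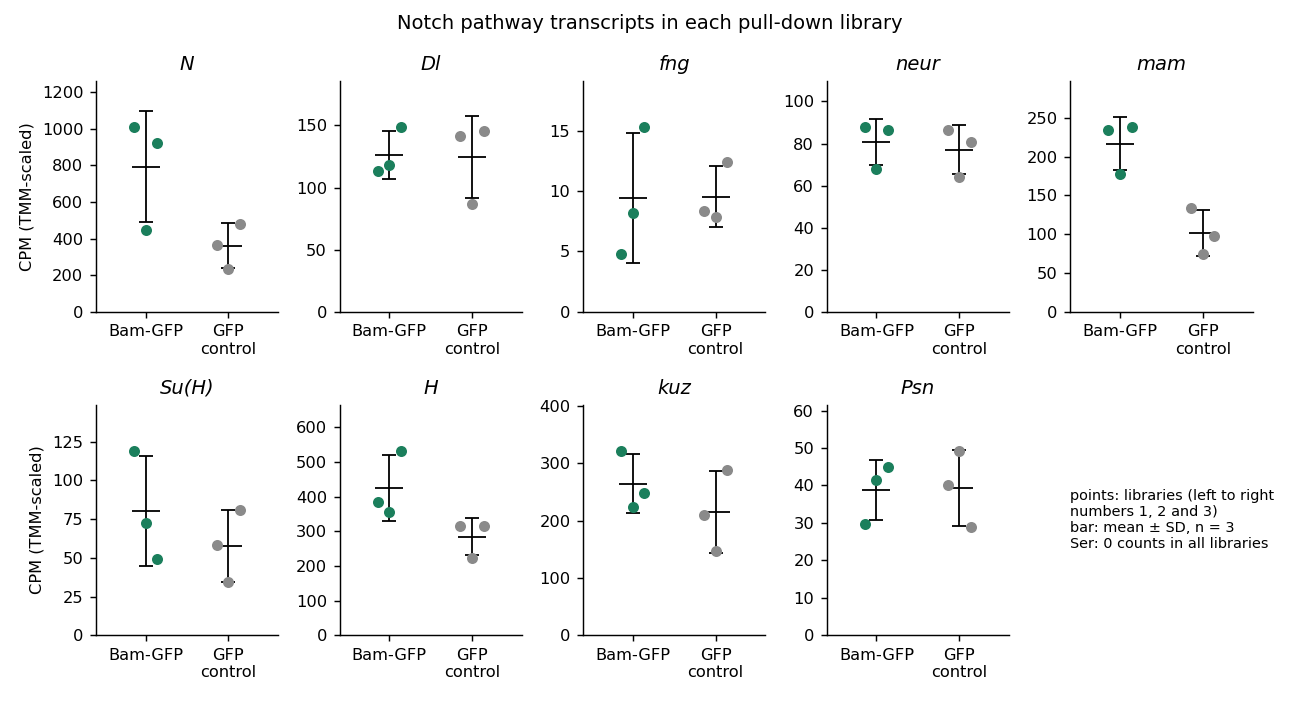
Level of each member in each pull-down library in TMM-scaled CPM on linear axes that start at 0. Points are single libraries with Bam-GFP at the left and the GFP control at the right, and bars give the mean ± SD (n = 3). *mam* and *H* have no overlap between both groups, while the lowest Bam-GFP library of *N* (445 CPM) lies under the highest control (479.96 CPM).

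*N* encodes the receptor itself and lies on chromosome X from 3134870 to 3172221 in the Release 6 assembly (FBgn0004647). It had 1009, 445 and 924 CPM in the Bam-GFP libraries 1, 2 and 3, against 367, 235 and 479.96 CPM in the GFP controls. Bam-GFP library 2 was low and fell below the highest control, so that the groups overlapped by this library. Library 2 was the lowest of the controls as well. The fold change was 2.16, or 1.11 on the log2 scale (SE 0.32, adjusted p = 0.0272 in edgeR's test). Leaving out 1 replicate at a time gave log2 fold changes from 0.93 to 1.20, with adjusted p-values in edgeR's test between 0.0532 and 0.435. The call also rested on the replicate block, since the adjusted p in edgeR's test was 0.0524 without it. No other annotated gene overlaps the span of *N*, so that its counts are not shared with a neighbour.

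Of the ligands, *Dl* (FBgn0000463, chromosome 3R from 19302731 to 19326217) encodes Delta, the ligand that germ cells present to follicle cells. It had 113, 118 and 149 CPM with Bam-GFP, against 142, 86.4 and 146 CPM with the GFP control. The groups overlapped widely, with a log2 fold change of 0.05 (SE 0.34, adjusted p = 0.982 in edgeR's test). *Ser* (FBgn0004197, chromosome 3R from 27172090 to 27194267), the other ligand, had 0 counts in all 6 libraries. A count of 0 allows a level of up to 0.252 to 0.371 CPM, taken as 3 counts in a library of each depth, and covers counting error only. *Ser* was therefore not detectable at this depth in either group, and no fold change is given.

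Around the ligands, *neur* encodes Neuralized, a ubiquitin ligase that drives the endocytosis of Delta and thereby its activity. *neur* (FBgn0002932, chromosome 3R from 9020348 to 9039471) had 87.8, 68.0 and 86.3 CPM with Bam-GFP and 86.2, 63.9 and 80.9 CPM with the GFP control. Library 2 was the lowest of its group on both sides, and the log2 fold change was 0.07 (SE 0.38). *fng* (FBgn0011591, chromosome 3L from 20925891 to 20949512) encodes a glycosyltransferase that extends the sugars on Notch and favours Delta over Serrate as the partner. It was the least counted of the tested members, with 4.78, 8.17 and 15.3 CPM in the Bam-GFP libraries and 8.34, 7.85 and 12.4 CPM in the controls. The Bam-GFP values spanned more than those of the control, and the log2 fold change of −0.14 had an SE of 0.84, so that the libraries could show only a large change of *fng*.

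The proteases came next. *kuz* (FBgn0259984, chromosome 2L from 13550139 to 13639411) encodes Kuzbanian, the ADAM metalloprotease that cuts the ligand-bound receptor. It had 322, 225 and 248 CPM with Bam-GFP, against 211, 147 and 289 CPM with the GFP control. The groups overlapped, with the highest control above 2 of the Bam-GFP libraries, and the log2 fold change was 0.33 (SE 0.32, adjusted p = 0.895 in edgeR's test). *Psn* (chromosome 3L from 20432468 to 20435156) encodes Presenilin, the catalytic subunit of γ-secretase. It had 29.7, 41.6 and 45.0 CPM with Bam-GFP and 40.1, 49.2 and 29.0 CPM with the control, and its log2 fold change of −0.02 (SE 0.48) had no stable sign. Whether the counting of the pull-downs used strand is not given in the sources used here. *Psn* overlaps the neighbouring gene *mRpL15*, while 4 annotated genes lie across the span of *kuz*, 2 across *neur* and 1 across *fng*, and counts of these members are uncertain where exons overlap.

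The nuclear members had log2 fold changes between 0.48 and 1.12. *mam* (FBgn0002643, chromosome 2R from 13991203 to 14060356) encodes Mastermind, the co-activator that joins the complex of Notch and Su(H) on DNA. It had 235, 177 and 238 CPM in the Bam-GFP libraries, against 133, 74.3 and 97.8 CPM in the GFP controls. All Bam-GFP libraries were above all controls, by a fold of 2.17 or a log2 fold change of 1.12 (SE 0.33, adjusted p = 0.0388 in edgeR's test). Without 1 of the replicates it had log2 fold changes between 1.03 and 1.27 and adjusted p-values between 0.0975 and 0.556 in edgeR's test, none of them past the threshold. Another 2 annotated genes, *mir-4978* and *CG18371*, overlap the span of *mam*.

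*Su(H)* (FBgn0004837, chromosome 2L from 15039488 to 15043334) encodes the DNA-binding factor of the pathway. Its levels were 119, 72.6 and 49.5 CPM with Bam-GFP and 58.6, 34.3 and 80.7 CPM with the GFP control. The groups overlapped, as library 3 was the lowest with Bam-GFP and the highest of the controls. The log2 fold change of 0.48 (SE 0.41, adjusted p = 0.895 in edgeR's test) was 0.18 without replicate 1, 0.16 without replicate 2 and 1.05 without replicate 3. *H* (FBgn0001169, chromosome 3R from 20621938 to 20628915) encodes Hairless, which holds Su(H) in its repressive form and recruits the co-repressors Groucho and CtBP. It had 386, 356 and 532 CPM in the Bam-GFP libraries, all above the 315, 222 and 315 CPM of the controls. The log2 fold change of 0.58 (SE 0.31) did not pass the adjusted threshold (adjusted p = 0.592 in edgeR's test), and the unadjusted p in the same test was 0.0655.

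The genes of the pathway besides the members were read from a list of 58 genes in 6 roles, of which 47 had a count in the pull-downs and 41 reached 10 counts in each of the 6 libraries. At an adjusted p under 0.05 in edgeR's test 2 were higher with Bam-GFP and none lower, and at an unadjusted p under 0.05 there were 8 higher and 2 lower. Of all genes, 1.72% were called higher at the adjusted p, and 5.54% were higher and 4.03% lower at the unadjusted p, so that the 2 lower of 47 were near the share over all genes. Over the 41 well-counted genes the median log2 fold change was 0.03, beside −0.04 over all genes with as many counts. Of the 47, the groups did not overlap for 6 genes higher and 7 lower with Bam-GFP, beside 6.4% and 7.24% of all genes. Both called genes work in the nucleus. *Smr*, which encodes a co-repressor of the SMRT kind that binds Su(H), had 1148, 699 and 1302 CPM with Bam-GFP, against 519, 278 and 412 CPM with the GFP control. The groups did not overlap, and the log2 fold change was 1.38 (SE 0.32, adjusted p = 0.00185 in edgeR's test). *nej*, which encodes the histone acetyltransferase CBP, a partner of Mastermind, had 2845, 1212 and 2432 CPM with Bam-GFP and 953, 513 and 1207 CPM with the control. Its lowest Bam-GFP library lay just above its highest control, and the log2 fold change was 1.28 (SE 0.32, adjusted p = 0.00576 in edgeR's test). Both calls were lost without replicate 2 (adjusted p = 0.245 for *Smr* and 0.411 for *nej* in edgeR's test), and that of *nej* also without replicate 1 (adjusted p = 0.0830).

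The nuclear role as a whole had 12 genes, all tested, with 8 positive log2 fold changes and a median of 0.55. *skd* and *kto* encode Med13 and Med12 of the Mediator kinase module. They had log2 fold changes of 0.90 (SE 0.31) and 0.76 (SE 0.33), with adjusted p-values of 0.127 and 0.348 in edgeR's test. *skd* passed the threshold with DESeq2's Wald test instead (adjusted p = 0.0308).

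Among the 5 ligand regulators, 4 lay above 0 on the log2 scale and none was called. *mib1* encodes Mind bomb 1, a ubiquitin ligase for both ligands, and had 177 ± 65.6 CPM in Bam-GFP libraries and 88.3 ± 38.9 CPM in controls (SD, n = 3 each). Its log2 fold change of 1.04 (SE 0.34) had an adjusted p of 0.0842 in edgeR's test and 0.0282 in DESeq2's Wald test. *lqf* encodes epsin, an endocytic adaptor that ligand-sending cells need. It stood at 250.4 ± 52.0 CPM with Bam-GFP and 142 ± 59.9 CPM with the control (SD, n = 3 each), with a log2 fold change of 0.88 (SE 0.32, adjusted p = 0.152 in edgeR's test). *Bre1*, the most counted gene under this heading, encodes a ubiquitin ligase of histone H2B and acts on target genes rather than on ligands. It had 442 ± 108 CPM in Bam-GFP libraries and 297 ± 28.6 CPM in controls, with a log2 fold change of 0.55 (SE 0.31).

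**Figure D2:**
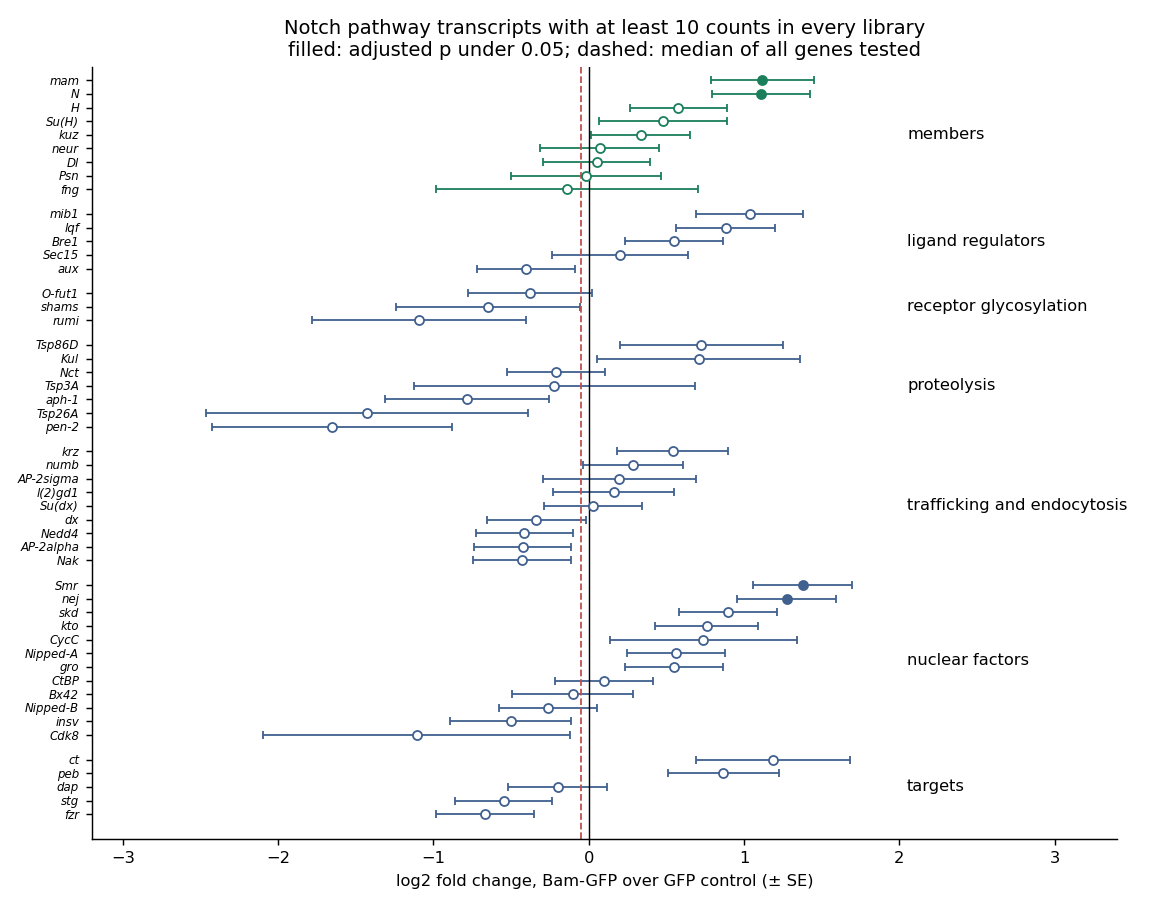
Log2 fold change of Bam-GFP over the GFP control with its standard error for the 9 tested members and for the 41 genes of the wider pathway list that reached 10 counts in each library, by role. Filled points passed an adjusted p under 0.05, which *mam*, *N*, *Smr* and *nej* did, and the dashed line marks the median of all genes tested, −0.05.

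Receptor glycosylation and the membrane proteases had lower values. All 3 glycosylation genes besides *fng* had a negative value, with a median log2 fold change of −0.65, and none was called. The most counted of them, *O-fut1*, which adds the first fucose to Notch, had 60.1 ± 8.97 CPM in Bam-GFP libraries and 81.5 ± 31.1 CPM in controls (SD, n = 3 each), at a log2 fold change of −0.38 (SE 0.40). Of the 7 proteolysis genes, 2 had a positive log2 fold change. *Nct*, for the γ-secretase subunit Nicastrin, had 178 ± 24.0 CPM in Bam-GFP libraries and 206 ± 31.6 CPM in controls (SD, n = 3 each). *pen-2*, which encodes a small subunit of γ-secretase, had 1.38, 26.7 and 2.27 CPM with Bam-GFP, against 11.7, 32.9 and 7.49 CPM with the control. Library 2 was high on both sides, and the log2 fold change of −1.65 (SE 0.77) had an unadjusted p of 0.0318 and an adjusted p of 0.408 in edgeR's test. It was −0.78 without the replicate block, −0.98 without replicate 1 and −2.38 without replicate 2. Of the 10 genes of trafficking and endocytosis, 6 lay above 0 on the log2 scale, and no unadjusted p was under 0.05. *Nedd4*, a ubiquitin ligase that removes Notch from the cell surface, was the most counted one and had a log2 fold change of −0.42 (SE 0.31). All of its Bam-GFP libraries were below all controls.

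Many targets of the pathway were not detected. Of 21 target genes, 11 had no count in any library, beside 6766 of all 17737 genes. Of the 21, 5 reached 10 counts in each library. Of these 5, 2 had a positive log2 fold change, and their median was −0.20. The Enhancer of split complex, whose genes encode repressors of the bHLH family and Bearded-family proteins switched on by Notch, held 11 of the targets. Of these, 7 had no count and the other four had at most 27 counts in a library, so that no fold change is given. *ct* and *peb* act in follicle cells, where Notch switches off the homeodomain factor Cut and switches on the zinc finger factor Hindsight, the product of *peb*. *ct* had 60.5, 41.0 and 54.4 CPM with Bam-GFP, all above the 20.4, 21.5 and 26.1 CPM of the control. Its log2 fold change was 1.19 (SE 0.49, adjusted p = 0.287 in edgeR's test). *peb* had 198, 70.4 and 149 CPM with Bam-GFP and 81.3, 52.5 and 80.0 CPM with the control, at a log2 fold change of 0.87 (SE 0.36, adjusted p = 0.281 in edgeR's test). The other three well-counted targets had negative values. *fzr*, which encodes the activator of the anaphase-promoting complex used in the endocycle, had 408, 311 and 370.03 CPM with Bam-GFP, all below the 426, 509 and 870.1 CPM of the control, and its log2 fold change was −0.67 (SE 0.32, adjusted p = 0.423 in edgeR's test). *stg*, which encodes the Cdc25 phosphatase String that drives mitosis, had 319.7, 410.3 and 322 CPM with Bam-GFP, all below the 523, 481 and 525 CPM of the control, at a log2 fold change of −0.55 (SE 0.31). *dap*, which encodes the cyclin-dependent kinase inhibitor Dacapo, had overlapping groups and a log2 fold change of −0.20 (SE 0.32).

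Gene length moved with these values. Genes that reached 10 counts in each library were divided into 4 classes of equal size by the span from the start to the end of the gene, which was known for 6259 of 6335 (98.8%). The median log2 fold change was −0.19, −0.16, −0.02 and 0.20 from the shortest to the longest class. In the longest class, of 6794 bp or more, 6.77% of 1565 genes were called higher with Bam-GFP at an adjusted p under 0.05 and 19.6% had an unadjusted p under 0.05 in that direction. A positive log2 fold change was held by 62.6% of this class. The longest class held 7 of the 9 tested members, among them *N* (37352 bp) and *mam* (69154 bp). *kuz*, at 89273 bp, was longer than both, and its log2 fold change of 0.33 lay closer to the median of the class than theirs did. *Dl* (23487 bp), *fng* (23622 bp) and *neur* (19124 bp) are in the same class and lay below its median. From the wider list, every gene higher with Bam-GFP at an unadjusted p under 0.05 was in the longest class too, except *mib1* (5261 bp). Among them were both called genes, *Smr* (58416 bp) and *nej* (21625 bp). The part of gene length in the values of *N*, *mam* and the genes of the wider list was not tested.

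**Figure D3:**
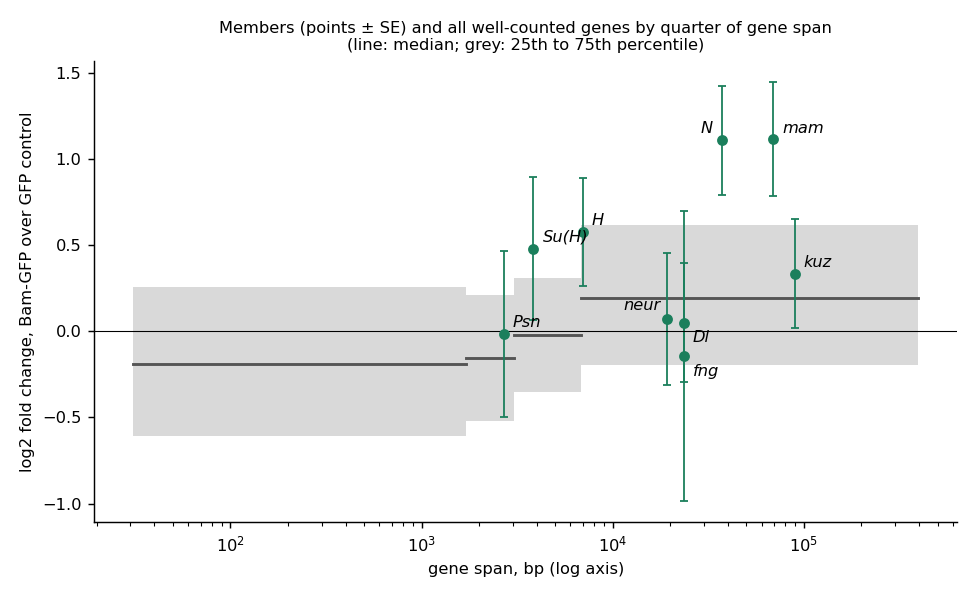
Log2 fold change of Bam-GFP over the GFP control (points ± standard error) against gene span in bp on a log axis for the 9 tested members. Lines show the median and grey bands the 25th to 75th percentile of all genes that reached 10 counts in each library, in 4 classes of gene span, and *N*, *mam* and *Su(H)* lie above the band of their class.

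The makeup of the libraries also differed between both groups. Over 22 marker genes of follicle cells, the cells in which Notch answers to germline Delta, 14 were higher with Bam-GFP at an adjusted p under 0.05 in edgeR's test and none was lower, with a median log2 fold change of 1.29. Their summed level was 20763, 33882 and 16625 CPM in the Bam-GFP libraries, against 5754, 10614 and 5635 CPM in the controls. Within each group the sum was highest in library 2, and 13 of the 22 markers, most of them eggshell genes, were highest there in both groups. *Vm34Ca*, for a vitelline membrane protein, alone reached 7352 CPM in Bam-GFP library 2. By contrast, 4 markers that encode transcription factors, *tj*, *slbo*, *mirr* and *br*, were lowest in library 2 of both groups, and so were 5 of the 9 tested members, *N*, *neur*, *mam*, *H* and *kuz*. *eya*, another transcription regulator on the list, was not, with 27.5, 31.9 and 36.7 CPM with Bam-GFP and 20.7, 15.1 and 21.8 CPM with the control. The share of all genes that were lowest in library 2 of both groups was not counted. *tj* had 150, 143 and 236 CPM with Bam-GFP and 92.6, 68.7 and 71.9 CPM with the control, at a log2 fold change of 1.16 (SE 0.35, adjusted p = 0.0438 in edgeR's test). That of *br* was 1.05 (SE 0.35, adjusted p = 0.0941 in edgeR's test), that of *mirr* 1.18 (SE 0.70), that of *eya* 0.75 (SE 0.56) and that of *slbo* −0.04 (SE 0.92). These stand beside 1.11 for *N* and 1.12 for *mam*. Of the 22 markers, *slbo* and *Fas3* (−0.51, SE 0.45) had a negative log2 fold change. The sum over 9 germline markers was 6763, 4564 and 7133 CPM in the Bam-GFP libraries and 4475, 3862 and 5149 CPM in the controls. This germline sum was likewise lowest in library 2 of both groups, but *osk* made up a large part of it. *osk* had 3936, 1780 and 4058 CPM with Bam-GFP and 1497, 924 and 1498 CPM with the control. Of the single germline markers, *osk*, *orb* and *BicD* were lowest in library 2 of both groups, and *otu* and *aub* were highest there in both. Of the germline markers, *osk* was called higher, at a log2 fold change of 1.26 (SE 0.32, adjusted p = 0.00689 in edgeR's test). The muscle sheath list ranged from 812 to 2056 CPM with Bam-GFP and from 835 to 1230.5 CPM with the control, with no gene called. The terminal filament, cap and escort cell list ranged from 340.2 to 1195 CPM with Bam-GFP and from 225 to 717 CPM with the control. Its sum was lowest in library 2 of both groups, but most of it came from *fax*. *fax* had 1133, 299 and 425 CPM with Bam-GFP and 284, 181 and 672 CPM with the control. Of the 9 genes of this list, 2, *en* and *wg*, had no count in any library. The 5 hemocyte and fat body markers together reached at most 27.98 CPM with Bam-GFP and 18.5 CPM with the control. The part of follicle cell RNA in the values of the members was not tested.

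**Figure D4:**
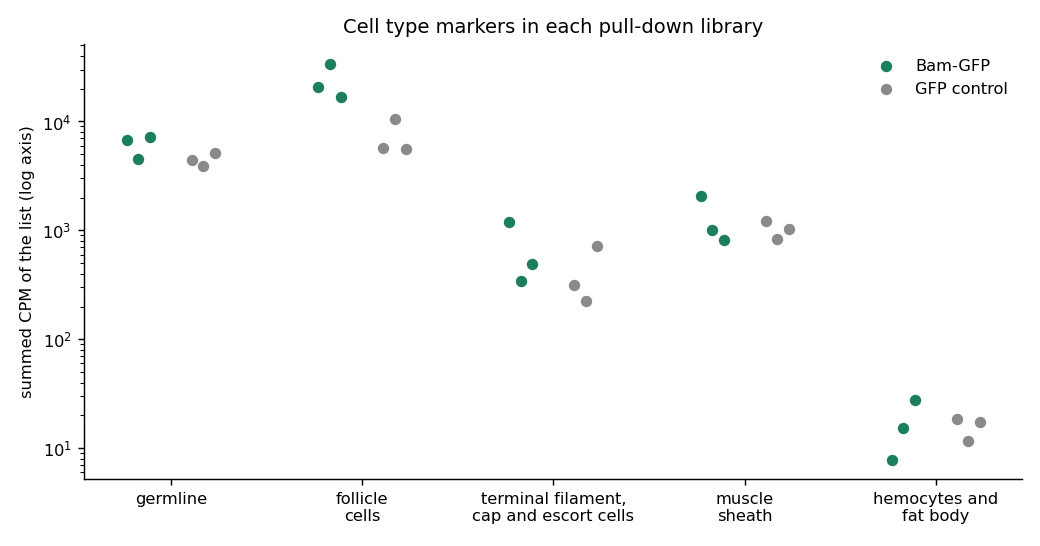
Summed CPM of the 5 marker lists in each pull-down library on a log axis, with Bam-GFP at the left and the GFP control at the right of each pair. The follicle cell sums are separated, from 16625 CPM upward with Bam-GFP and up to 10614 CPM with the control.

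In the sorted cells, the deposited table gives each listed gene a normalized count averaged by the authors over all 6 libraries of both genotypes, with no value of a single library. This mean therefore says how much of a transcript the sorted cells held together, and nothing on the size or direction of a difference between *bam*-/- and *vas*-GFP. The paper reports as many differentially regulated genes as the table lists. Being listed therefore reflects the authors' own call of a difference between the genotypes, which was not tested here. Of the 10971 genes tested in the pull-downs, 5871 were listed, and so were all 9 tested members. The authors' mean was 15661 for *N*. It was 5035 for *Dl* and 65.0 for *Ser*, so that this ligand was counted in the sorted cells while it had no count in the pull-downs. *neur* had an authors' mean of 1874 and *fng* of 2861. For the proteases it was 7137 in *kuz* and 4164 in *Psn*. Of the nuclear members, *H* had 7158, *mam* 5481 and *Su(H)* 1035. Levels are not ordered between genes, because transcript lengths were not available here.

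The sorted cells also held targets of the pathway. Of the 11 Enhancer of split genes, 8 were in the table, with authors' means between 111 and 18664. None exceeded 27 counts in a pull-down library, but these raw counts and the authors' means are not on the same scale. All 22 follicle cell markers were in the table too, with authors' means between 109 and 41190, next to 7 of the 9 germline markers with means between 334 and 14766. The table lists genes that the authors selected by their own comparison of *bam*-/- with *vas*-GFP. It does not say from which of the sorted cells these counts came.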

How the data were processed

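RNA-seq covered GFP-positive cells sorted from ovaries (3 *bam*-/- and 3 *vas*-GFP samples) and RIP-seq covered ovaries (3 Bam-GFP and 3 GFP control samples). The authors aligned reads with STAR 2.4.0 to a FlyBase genome and counted them per gene with HTSeq 0.11.0. The deposited RIP-seq table holds raw counts, and 5 summary lines that name no gene were left out. Of the total over all lines of a library, they held 79.3% to 89.6% as alignments to several places, counted as alignment records and not as reads, and 0.639% to 1.14% as outside genes or ambiguous. Its columns are named Bam1 to WT3, which are also titles of RNA-seq samples. They were given to the RIP groups because the table holds the paired comparison that the methods describe for RIP-seq. The deposited RNA-seq table holds the signal of each listed gene as a mean count normalized by the authors with DESeq2 1.14.0. Fold changes and p-values of the authors' own comparisons are in both tables and were not used, so that *bam*-/- was not compared with *vas*-GFP.

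Counts were fitted with edgeR 4.0.16 in R 4.3.3 (TMM factors from 0.807 to 1.13, robust quasi-likelihood test, replicate number as a block after the paired test of the study, adjusted p under 0.05). Standard errors were derived from the F statistic. Alternatives were RLE factors, library size only, totals with alignments to several places, DESeq2 1.42.0, each replicate number left out, no replicate block, edgeR's low-count filter, and a minimum of 10 counts per library. Named genes were the members, every gene of the wider list with an unadjusted p under 0.05, the most counted gene of each role, and *bam*. *osk*, *orb*, *BicD*, *otu*, *aub*, *en*, *wg*, *fax*, single follicle cell markers, *stg*, *dap* and the Enhancer of split genes were named after their values were seen. Members and lists were chosen with earlier results of these data known. Symbols, spans and coordinates came from RefSeq's Release 6 annotation, where 17599 of 17737 identifiers had a symbol. Figures used matplotlib 3.10.9.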

Additional observations from a re-analysis of the deposited data

How the results depend on the processing

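Of 24 named genes, 20 kept the sign of their log2 fold change in all 10 alternatives. The sign turned for *Dl* with library size only (−0.17) and without replicate 2 (−0.15), for *fng* without replicate 1 (0.18), for *neur* with library size only (−0.15), and for *Psn* with RLE factors (0.012), totals with alignments to several places (0.098), DESeq2's Wald test (0.012), without replicate 1 (0.19) and without replicate 2 (0.10). With 1 replicate left out, *Dl* ranged from −0.15 to 0.24, *fng* from −0.37 to 0.18 and *Psn* from −0.34 to 0.19. Without a change of sign, *Su(H)* ranged from 0.16 to 1.05, *kuz* from 0.19 to 0.61, *kto* from 0.40 to 1.05, *fzr* from −0.97 to −0.39, *O-fut1* from −0.56 to −0.071, *Nct* from −0.30 to −0.11 and *pen-2* from −2.38 to −0.98. The cause was not tested.

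The number of members called higher at an adjusted p under 0.05, 2 in the main test, was 0 with library size only, with totals with alignments to several places, with edgeR's low-count filter and with at least 10 counts in every library, and ranged from 0 to 0 when 1 replicate was left out. The members' median log2 fold change, 0.33 in the main test, was 0.11 with library size only and 0.16 to 0.49 when 1 replicate was left out. With this scaling the median over all genes shifted by −0.21 and 38.7% of genes had a positive log2 fold change, and with totals with alignments to several places the shift was 0.12 and the share 53.2%.

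In the wider list, 2 genes were called higher in the main test, 4 with DESeq2's Wald test and 0 to 2 when 1 replicate was left out. At an unadjusted p under 0.05, 5 were higher with library size only. The number lower, 2 in the main test, was 7 with library size only, 0 with totals with alignments to several places, 1 with DESeq2's Wald test and 0 to 1 when 1 replicate was left out. The median of the wider list, 0.16 in the main test, was −0.061 with library size only, 0.30 with totals with alignments to several places, 0.067 with edgeR's low-count filter, 0.028 with at least 10 counts in every library and 0.0019 to 0.11 when 1 replicate was left out. Among all genes, 241 were called in the main test, 153 with totals with alignments to several places, 408 with DESeq2's Wald test, 118 with edgeR's low-count filter, 113 with at least 10 counts in every library and 73 to 165 when 1 replicate was left out.

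Without the replicate block, 1 member was called higher, the number of genes of the wider list lower at an unadjusted p under 0.05 was 1 and its median log2 fold change was 0.079. Deviations from the group mean correlated between libraries of the same number by −0.15, 0.23 and −0.050 over 6335 genes, and 2 of 6 libraries were closest to their own number. The libraries therefore give no consistent sign that the numbers pair them. Number 2 alone had a positive correlation, and its libraries held the highest follicle cell sum of each group. The main test nevertheless holds the numbers as a block, after the paired test of the study.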
